A study of Mus musculus with 6 samples.

Results

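Igf1, the 2 receptors Igf1r and Igf2r, and 6 binding proteins, Igfbp2 to Igfbp7, were read on 1-colour Agilent mouse arrays of embryonic fibroblasts lacking TIA1 or TIAR, a pair of related RNA-binding proteins. Every non-control probe named for one of these 9 genes was taken, which gave 15 of the 55681 probes and 9 of the 34797 names on the array. In all, 6 arrays were compared, 2 from each of 3 immortalized murine embryonic fibroblast (MEF) lines, each from an independent experiment. The lines were wild type (WT, strain W4), TIA1 KO (strain BALB/c) and TIAR KO (strain C57BL/6), with no other treatment in the labels. Since each genotype came as 1 line on its own strain, genotype, strain and line cannot be told apart, and p-values measure the spread between arrays of a line.

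Insulin-like growth factor 1 is a secreted growth factor that signals through the tyrosine kinase IGF1R to the PI3K-AKT and MAPK cascades. IGF2R, a receptor without kinase activity, takes up IGF2 for lysosomal degradation. The IGF-binding proteins hold the ligands outside the cell, where they prolong their life, restrict or hand over their access to the receptor, and are cut by dedicated proteases.

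Values are normalized log2 intensities, on which a difference of 1 is a 2-fold change. A probe was called when limma's moderated test gave a Benjamini-Hochberg adjusted p under 0.05 over all 55681 probes and the change exceeded 2-fold. By the scanner's rating, 23531 and 26254 probes stood well above background for WT, 24754 and 25985 for TIAR KO and 16000 and 19920 for TIA1 KO. Both TIA1 KO arrays sat in a separate slide row, and their median raw intensities of 458 and 218 exceeded those of the other 4 arrays, which lay between 119 and 152. Slide row and TIA1 loss cannot be told apart. Where a probe was not well above background on either array of the lower group, the fold change is given as "at least", against the lowest signal that was well above background on each of those arrays or the probe's own signal, whichever was higher.

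The deleted genes were read first. For the brightest Tia1 probe, WT MEF gave 10.72 and 8.54 against 7.87 and 8.44 for TIA1 KO MEF, a difference of -1.47 that was not called. A second Tia1 probe read 9.56 and 9.90 against 7.57 and 8.65 and was not called (-1.62, limma adjusted p = 0.116). The last Tia1 probe, assigned to an Ensembl transcript and near background on both WT arrays, went the other way, from 7.44 and 7.25 to 7.88 and 8.54 (0.87, adjusted p = 0.149). Each of the 3 Tia1 probes was well above background on 1 of the 2 TIA1 KO arrays. The Tia1 probes thus differed in direction, with TIA1 KO values partly at background. The brightest Tial1 probe, for the gene of TIAR, read 9.57 and 11.60 in TIAR KO MEF and 13.22 on the 1 WT array whose spot was not an outlier, and was not called either. A second Tial1 probe gave 11.71 and 11.09 for WT against 10.00 and 9.65 for TIAR KO MEF, and was called lower (log2 change -1.58 ± 0.26 (SE, n = 2 against 2), limma adjusted p = 0.0254). Both Tial1 probes were thus lower in TIAR KO MEF, and 2 of 3 Tia1 probes in TIA1 KO MEF, and of these the second Tial1 probe alone passed the test. The Tial1 call was lost without WT replicate 1 (-1.27), without TIAR KO replicate 1 (-1.76) or 2 (-1.40) and with the processed signal scaled to the 75th percentile (-1.62), while the brightest Tial1 probe was called without TIAR KO replicate 2 (-3.65). With arrays scaled to a common median, the 2 lower Tia1 probes were called in TIA1 KO MEF (-2.15, adjusted p = 0.000137, and -2.34, 3.17e-05), and the second of them also without TIA1 KO replicate 2 (-2.16).

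Different binding proteins carried the largest changes in each knockout. In TIA1 KO MEF, Igfbp3, Igfbp4 and Igfbp5 rose. In TIAR KO MEF, Igfbp6 rose 37.1-fold and Igfbp2, Igfbp3 and Igfbp5 rose by less. Read from each gene's brightest probe, 3 of 9 genes were called higher and 0 lower by limma in TIA1 KO MEF (6 and 0 at an unadjusted p under 0.05), where 3.54% of all probes were called (2.18% higher and 1.36% lower). In TIAR KO MEF 4 of 9 were called higher and 0 lower (7 and 0 unadjusted), where 5.76% of all probes were called (3.39% higher and 2.37% lower). The shares over all probes, here and below, include probes near background. With only probes well above background tested, 2922 of 23423 were called for TIA1 KO and 3334 of 25187 for TIAR KO. That setting called 3 and 4 of the IGF genes. For TIA1 KO the median log2 change of the 9 genes was 0.92 against -0.09 over all probes, and for TIAR KO 0.78 against -0.02. This distance depended on the scaling. With the processed signal scaled to the 75th percentile it was 2.25 against 1.98 for TIA1 KO and 1.24 against -0.04 for TIAR KO, and with a common array median 0.32 against -0.68 and 0.32 against -0.03. Both knockout arrays lay above both WT arrays for 8 of 9 genes in TIA1 KO MEF and for 9 of 9 in TIAR KO MEF, and for 26.1% and 22% of all probes. Both comparisons use the same WT arrays.

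**Figure D1:**
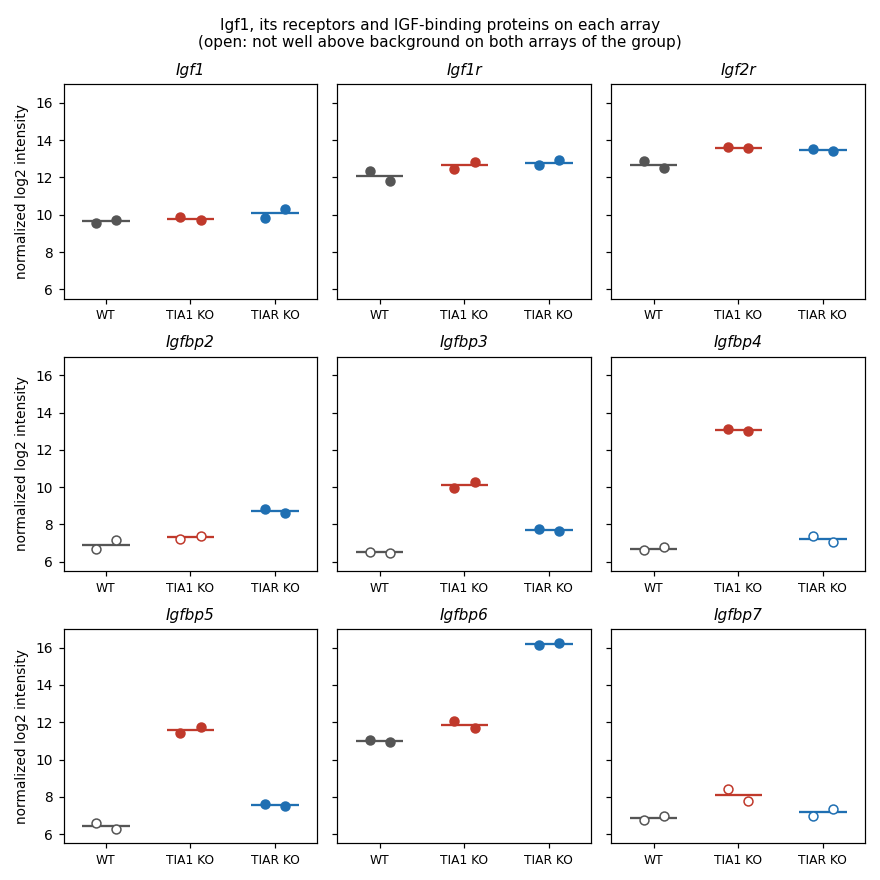
Normalized log2 intensity of the brightest probe of each of the 9 genes on every array, grouped as WT, TIA1 KO and TIAR KO MEF, with a line at each mean and open points for groups in which fewer than 2 arrays rated the probe well above background. Igfbp4 reads 13.14 and 13.01 for TIA1 KO against 6.65 and 6.77 for WT, while Igfbp6 stands highest in TIAR KO MEF at 16.16 and 16.26.

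The bases just before the RefSeq start of the 4 binding protein genes with the largest changes are shown for orientation, 60 bases each on the gene's own strand (GRCm38.p6, RefSeq), with the longest run of only A and T in capitals.
Igfbp3 (chr11:7213924-7213983, minus strand): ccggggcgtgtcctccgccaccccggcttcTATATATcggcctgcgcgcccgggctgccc
Igfbp4 (chr11:99041184-99041243, plus strand): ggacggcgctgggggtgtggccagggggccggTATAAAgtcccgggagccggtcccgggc
Igfbp5 (chr1:72874866-72874925, minus strand): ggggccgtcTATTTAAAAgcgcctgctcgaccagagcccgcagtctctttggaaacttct
Igfbp6 (chr15:102144126-102144185, plus strand): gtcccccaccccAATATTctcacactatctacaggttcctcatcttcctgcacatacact
The run lay 30 to 24 bases before the start in Igfbp3, 28 to 23 in Igfbp4, 51 to 43 in Igfbp5 and 48 to 43 in Igfbp6. A run of at least 6 A or T letters was present in the same window of 28.3% of 32851 RefSeq promoters. The letters TATAAA, searched on both strands, were found in this window of Igfbp4 and in 3.92% of all promoters, and not in these windows of the other 3 genes. G and C made up 75% of the window in Igfbp3, 76.7% in Igfbp4, 55% in Igfbp5 and 48.3% in Igfbp6. These matches describe the letters only.

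Igf1, the ligand, was read by 5 probes on chromosome 10 (mm9, as the scanner files give all probe positions), each spotted in duplicate. They did not move alike. The brightest probe, chr10:87378456-87378515, assigned in the files to the transcript NM_184052, read 9.55 and 9.74 in WT, 9.88 and 9.72 in TIA1 KO and 9.85 and 10.33 in TIAR KO MEF. It was well above background on every array and was called in neither knockout (log2 changes 0.16 ± 0.17 and 0.45 ± 0.21 (SE), adjusted p = 0.559 and 0.332). Its 95% intervals, -0.30 to 0.61 and -0.08 to 0.98, did not reach 2-fold.

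The other 4 Igf1 probes lay further along the chromosome and were assigned to the transcript NM_010512. The probe at chr10:87393581-87393640 read 6.93 and 6.69 in WT, 9.36 and 9.51 in TIA1 KO and 9.74 and 9.80 in TIAR KO MEF. It was not well above background on either WT array and was called higher in both knockouts, at least 5.65-fold in TIA1 KO (limma adjusted p = 0.0116) and at least 7.13-fold in TIAR KO (0.000724). The probe at chr10:87393561-87393620, which overlaps it, read 6.89 and 6.85 in WT, 8.36 and 9.25 in TIA1 KO and 9.76 and 9.16 in TIAR KO MEF. It too was at background on both WT arrays, and was called at least 5.43-fold higher in TIAR KO (2.59 ± 0.23 as fitted, adjusted p = 0.00346). The difference of at least 3.45-fold in TIA1 KO MEF (1.93 ± 0.34, adjusted p = 0.0721) was not called, although its groups did not overlap in either.

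The probe at chr10:87399581-87399640 read 6.50 and 6.69 in WT, 7.25 and 8.21 in TIA1 KO and 8.47 and 8.45 in TIAR KO MEF, with both WT arrays at background and a call in TIAR KO alone (at least 2.87-fold, 1.87 ± 0.15 as fitted, adjusted p = 0.00258). The probe at chr10:87395924-87395983, between these, read 7.52 and 7.37 in WT, 7.46 and 7.27 in TIA1 KO and 7.78 and 7.84 in TIAR KO MEF and was called in neither. Igf1 was thus called higher by 3 of 5 probes in TIAR KO and by 1 of 5 in TIA1 KO MEF, with no call by its brightest probe. The probe at 87393581 lost its TIA1 KO call without either WT array (2.74 and 2.50). The probe at 87393561 gained one without either TIA1 KO array (2.38 and 1.49), and that at 87399581 without TIA1 KO replicate 1 (1.61). None of the 5 was called between the 2 knockouts. Averaged over its 5 probes, Igf1 was called higher against WT for TIA1 KO (1.15, limma adjusted p = 0.0434) and for TIAR KO (1.64, 0.00227), so its call depended on how the probes were combined. The exons, introns and UTRs under these probes were not determined here.

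**Figure D2:**
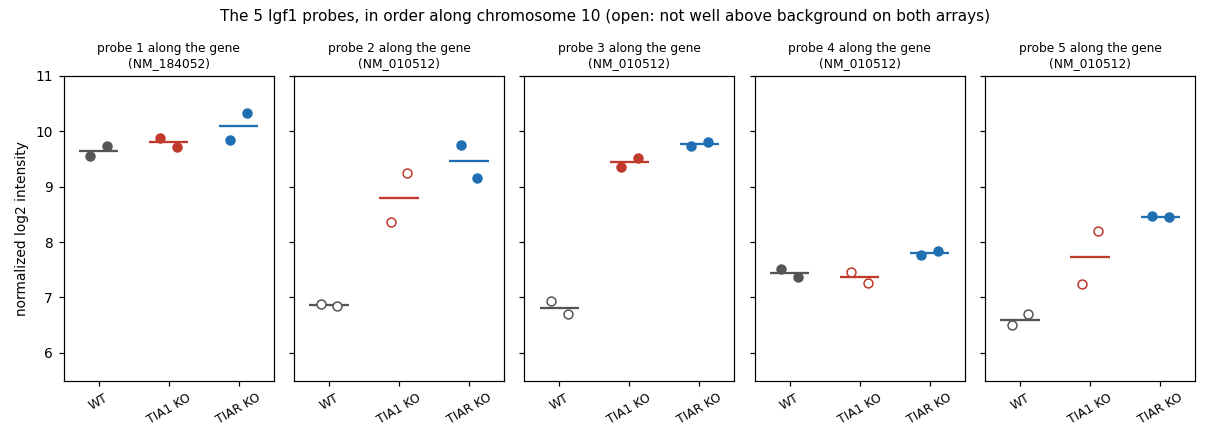
Normalized log2 intensity on every array of the 5 Igf1 probes, ordered along chromosome 10, with group means as lines and open points for groups in which fewer than 2 arrays rated it well above background. The first probe reads between 9.55 and 10.33 on all 6 arrays, while the third reads below 7 on both WT arrays and above 9 on the other 4.

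The genes whose 6-array pattern was closest to that of the brightest Igf1 probe, by the root mean square difference of mean-centred log2 values over 18992 probes, were Tceal8 (0.0588), AI464814 (0.0739), Numbl (0.0742), Dda1 (0.0797) and Prdx5 (0.0813). Tceal8, the closest, read 11.58 and 11.76 in WT, 12.03 and 11.89 in TIA1 KO and 11.92 and 12.47 in TIAR KO MEF. The probes of these genes were chosen for closeness to this Igf1 probe, so a similarly small range was built in. Like it, and unlike 3 of the other 4 Igf1 probes, they varied by less than 1 log2 unit over the 6 arrays. That of AI464814 was not well above background on either TIA1 KO array.

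The receptors were well above background on all 6 arrays and were called in no comparison. Igf1r, the signalling receptor (chr7:75378461-75378520), read 12.37 and 11.81 in WT, 12.44 and 12.84 in TIA1 KO and 12.67 and 12.93 in TIAR KO MEF. Its changes were 0.55 ± 0.28 and 0.71 ± 0.24 (SE, limma adjusted p = 0.268 and 0.171). Igf2r, the clearance receptor, was read by a probe with 10 spots whose listed position on chr17 spans 12875253 to 12875263. It read 12.87 and 12.51 in WT, 13.64 and 13.56 in TIA1 KO and 13.52 and 13.41 in TIAR KO MEF. Both knockouts lay above WT for both receptors, by 0.92 ± 0.19 (adjusted p = 0.0913) and 0.78 ± 0.18 (0.0688) for Igf2r, and neither change passed the threshold. Scaled to a common array median, the TIA1 KO changes of Igf1 (-0.99), Igf1r (-1.03) and Igf2r (-0.68) turned negative, with a median over all probes of -0.68, and Igf1's was also negative under 3 other settings.

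Igfbp4, a binding protein known to inhibit IGF action and the substrate of the protease PAPP-A, showed the largest change of the 9 genes in TIA1 KO MEF. Its probe (chr11:98913334-98913393) read 6.65 and 6.77 in WT, 13.14 and 13.01 in TIA1 KO and 7.40 and 7.07 in TIAR KO MEF. It went from background on both WT arrays to at least 68.7-fold higher in TIA1 KO MEF (6.37 ± 0.16 (SE), limma adjusted p = 0.00362). In TIAR KO MEF 1 of 2 arrays rated it well above background and it was not called (0.53 ± 0.17, adjusted p = 0.171).

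Igfbp5, a binding protein that also attaches to extracellular matrix, followed the same order. Its probe (chr1:72904829-72904888) read 6.59 and 6.28 in WT, 11.43 and 11.73 in TIA1 KO and 7.60 and 7.50 in TIAR KO MEF. It was called at least 25.8-fold higher in TIA1 KO (5.14 ± 0.21, adjusted p = 0.00492) and at least 1.58-fold higher in TIAR KO MEF (1.12 ± 0.17, adjusted p = 0.0207). The latter lay just past the 2-fold threshold as fitted and was not called under 6 of 14 alternatives, among them the authors' log2 table (0.98) and the omission of WT replicate 2 (0.96), TIAR KO replicate 1 (1.07) or TIAR KO replicate 2 (1.17).

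Igfbp3, the main carrier of IGFs in blood, rose in both knockouts. Its probe (chr11:7106594-7106653) read 6.55 and 6.47 in WT, 9.94 and 10.26 in TIA1 KO and 7.74 and 7.65 in TIAR KO MEF. The change was at least 9.25-fold in TIA1 KO (3.59 ± 0.18, adjusted p = 0.00677) and at least 1.75-fold in TIAR KO MEF (1.19 ± 0.14, adjusted p = 0.00958). A second probe (chr11:7107949-7108008), assigned to an Ensembl transcript, was not well above background on any array, at 6.68 to 6.83. With both probes averaged, the TIAR KO change fell to 0.58 and was no longer called.

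Igfbp6, a binding protein with preference for IGF2, was the most changed of the 9 genes in TIAR KO MEF. Its probe (chr15:101979852-101979911) read 11.02 and 10.96 in WT, 12.06 and 11.69 in TIA1 KO and 16.16 and 16.26 in TIAR KO MEF. It was measured well above background on all 6 arrays, so its 37.1-fold change in TIAR KO MEF (5.21 ± 0.14, adjusted p = 0.000186) is no bound. In TIA1 KO MEF it was not called (0.88 ± 0.19, adjusted p = 0.096, and -0.74 with arrays scaled to a common median).

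Igfbp2, a binding protein of fetal tissues and body fluids, rose in TIAR KO MEF. Its brighter probe (chr1:72898677-72898736) read 6.67 and 7.14 in WT, 7.23 and 7.39 in TIA1 KO and 8.82 and 8.63 in TIAR KO MEF. It was at least 2.96-fold higher in TIAR KO MEF (1.82 ± 0.21, adjusted p = 0.00812) and near background in both other lines. A second probe (chr1:72898813-72898872) read 6.77 and 6.96 in WT, 7.12 and 6.98 in TIA1 KO and 7.82 and 7.79 in TIAR KO MEF, where its change of at least 1.67-fold from background (0.94 as fitted, adjusted p = 0.0227) was not called. The Igfbp2 and Igfbp5 probes lie 6.09 kb apart on chromosome 1, and the knockout in which each gene read highest differed.

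Igfbp7, which binds IGFs with low affinity, was called in no comparison under the reported settings. Its probe (chr5:77778271-77778330) read 6.75 and 6.98 in WT, 8.39 and 7.78 in TIA1 KO and 6.98 and 7.36 in TIAR KO MEF, and 1 TIA1 KO array alone rated it well above background. The TIA1 KO difference of at least 2.01-fold (1.22 ± 0.27 as fitted) missed the threshold (adjusted p = 0.0952). It passed under 3 of 13 alternatives, which were a common array median (1.22, adjusted p = 0.0399), all 3 groups in 1 fit (0.0463) and the omission of TIA1 KO replicate 2 (1.53, 0.0161).

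The knockouts were compared directly to ask which changes were of unequal size. Of the 9 genes, 2 were called higher in TIAR KO than in TIA1 KO MEF and 3 lower, where 3.35% of all probes were called (1.72% higher and 1.63% lower). Igfbp6 was 20.2-fold higher in TIAR KO MEF (4.33 ± 0.20 (SE), limma adjusted p = 0.00749) and Igfbp2 at least 2.03-fold higher (1.42 ± 0.17, adjusted p = 0.0368). Igfbp4 was lower in TIAR KO MEF (-5.84 ± 0.19, adjusted p = 0.00571), as were Igfbp5 (-4.03 ± 0.18, 0.00749) and Igfbp3 (-2.40 ± 0.19, 0.0157). Igf1, Igf1r, Igf2r and Igfbp7 were not called, with differences of 0.29 (95% interval -0.33 to 0.91), 0.16 (-0.44 to 0.76), -0.14 (-0.56 to 0.28) and -0.92 (-1.70 to -0.14). For Igfbp7, at background in TIAR KO MEF, this was a difference of at least 1.89-fold.

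**Figure D3:**
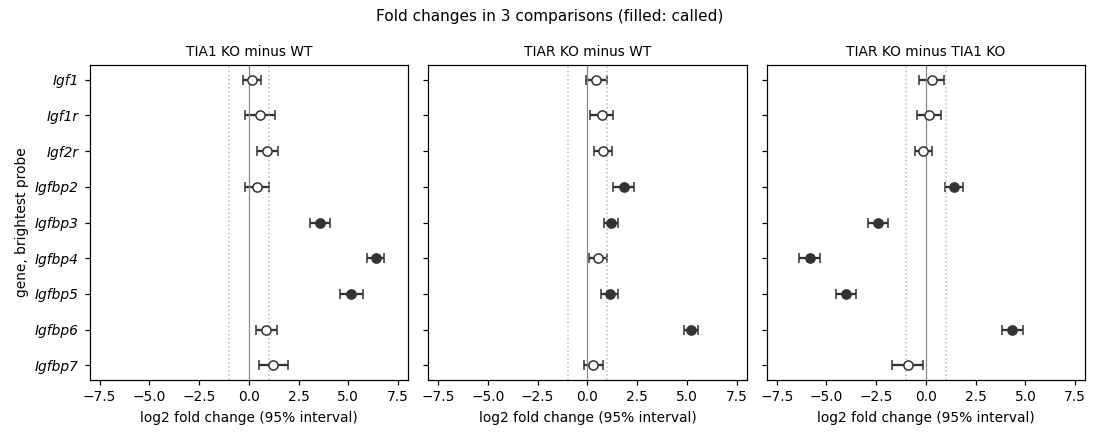
Log2 fold change with its 95% interval for the brightest probe of each gene in TIA1 KO against WT, TIAR KO against WT and TIAR KO against TIA1 KO MEF, with filled points for calls and dotted lines at 2-fold. Igfbp3, Igfbp4 and Igfbp5 lie far to the right in TIA1 KO MEF, at 3.59, 6.37 and 5.14, and Igfbp6 in TIAR KO MEF, at 5.21.

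Single arrays were left out in turn. The variance then came only from the group that kept both arrays, so these calls also depended on which pair was left. The median SD between the 2 arrays of a group was 0.17 for TIA1 KO, 0.12 for WT and 0.13 for TIAR KO. The calls of these fits therefore do not measure by themselves how far a result rests on 1 array. Without WT replicate 1 or WT replicate 2, 0 probes of any gene were called in TIA1 KO MEF by limma, with 7202 and 7415 probes at an unadjusted p under 0.05, while the changes of Igfbp3 (3.62 and 3.55), Igfbp4 (6.31 and 6.43) and Igfbp5 (5.30 and 4.98) hardly moved. Without TIA1 KO replicate 2, 5 of the 9 genes were called, Igfbp6 (1.06) and Igfbp7 (1.53) added. Without TIAR KO replicate 1, Igfbp6 alone was called in TIAR KO MEF, and Igfbp2 (1.73), Igfbp3 (1.14) and Igfbp5 (1.07) missed the adjusted threshold. The direct comparison gave 0 calls without TIAR KO replicate 1 or 2. Igfbp6 was called in TIAR KO MEF under all 14 alternatives, with changes from 4.72 to 5.27. Igfbp3, Igfbp4 and Igfbp5 were each called in TIA1 KO MEF under 11 of 14, and each kept its sign in all 14. The lowest changes were 1.76, 5.33 and 4.29.

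**Figure D4:**
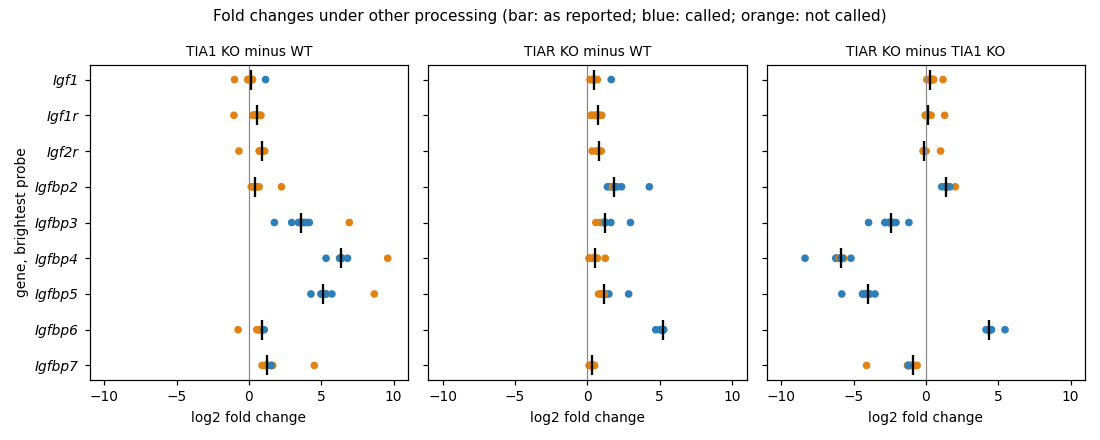
Log2 fold change of each gene's brightest probe, or in 1 setting the mean of its probes, under the alternative settings (points, blue where called and orange where not) beside the reported value (black bar), in the 3 comparisons. Igfbp6 in TIAR KO against WT stays between 4.72 and 5.27, while the TIA1 KO changes of Igf1, Igf1r, Igf2r and Igfbp6 fall on both sides of 0.

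The other genes of the pathway were read from each gene's brightest probe in 5 lists. Of 8 other ligands, receptors and carriers of the family, 0 were called by limma in either knockout (1 gene, lower, at an unadjusted p under 0.05 in each), and 6 were near background in both knockout and WT MEF. Igf2, the other main ligand, read 7.20 and 6.85 in WT, 7.08 and 7.54 in TIA1 KO and 6.64 and 7.24 in TIAR KO MEF, near background throughout. Insr, the insulin receptor, read 8.98 and 8.87 in WT, 8.04 and 9.29 in TIA1 KO and 8.45 and 8.43 in TIAR KO MEF, and its groups overlapped in TIA1 KO MEF. Igfbp1 and Igfals, the acid-labile partner of IGFBP3 complexes, were near background in all 3 lines.

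Of 6 proteases of the binding proteins and their inhibitors, 3 were called higher for TIA1 KO and 1 for TIAR KO, with 0 lower by limma (0 unadjusted), where 2.18% and 3.39% of all probes were called higher. Stc2, an inhibitor of PAPP-A, read 7.04 and 7.16 in WT, 12.24 and 11.54 in TIA1 KO and 6.86 and 6.69 in TIAR KO MEF. It was called at least 26.3-fold higher in TIA1 KO MEF (4.79 ± 0.28 (SE), limma adjusted p = 0.00862). Adam12, a metalloprotease that cuts IGFBP3 and IGFBP5, read 7.81 and 7.58 in WT, 10.80 and 10.87 in TIA1 KO and 8.18 and 8.36 in TIAR KO MEF, 3.14 ± 0.17 higher in TIA1 KO MEF (adjusted p = 0.00736). Htra1, a secreted serine protease, rose in TIA1 KO MEF from 13.82 and 13.64 to 15.72 and 15.26 (1.76, adjusted p = 0.0395), a call that held under 6 of 13 alternatives. Pappa2, the protease of IGFBP5, rose in TIAR KO MEF from 7.30 and 7.40 to 8.74 and 8.95 (1.49, adjusted p = 0.00574) and read 7.19 and 7.18 in TIA1 KO MEF. Between the knockouts, Stc2 was called lower in TIAR KO MEF, where it was at background, by at least 29.0-fold (-5.12 as fitted). Adam12 (-2.57) was called lower too, and Pappa2 at least 2.37-fold higher (1.66 as fitted), with TIA1 KO MEF at background. Pappa itself was well above background on the TIA1 KO arrays alone (8.24 and 9.47, against 7.07 and 7.15 for WT), and was not called.

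Of 5 genes of the growth hormone axis, 0 were called by limma in TIA1 KO (2 higher at an unadjusted p under 0.05) and 1 higher in TIAR KO MEF (2 unadjusted), where 3.54% and 5.76% of all probes were called. That gene was Ghr, the growth hormone receptor, at 11.35 and 10.48 in WT, 12.50 and 12.39 in TIA1 KO and 12.89 and 12.75 in TIAR KO MEF (1.91 ± 0.30, limma adjusted p = 0.0233), a call lost without TIAR KO replicate 1 (1.84) or 2 (1.98). Socs2, an inhibitor of growth hormone signalling, was called higher in TIAR KO than in TIA1 KO MEF (1.54, limma adjusted p = 0.0494), a call that held under 6 of 13 alternatives, with adjusted p from 5.38e-05 to 0.369. Of the 3 IGF2 mRNA-binding proteins, Igf2bp3 rose in TIAR KO MEF from 10.56 and 10.62 to 12.48 and 12.49 (1.90 ± 0.14, adjusted p = 0.00189). It read 11.60 and 11.65 in TIA1 KO MEF, above both WT arrays but not called (1.03, adjusted p = 0.0505), and the difference between the knockouts was not called either (0.87, 0.0704). Igf2bp1 and Igf2bp2 were not called.

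Of 28 genes of signalling below the IGF1 receptor, 3 were called higher and 1 lower by limma in TIA1 KO MEF (7 and 6 at an unadjusted p under 0.05), where 3.54% of all probes were called. With only probes well above background tested, 2922 of 23423 were called there, a share close to that of this list. For TIAR KO MEF 2 were called higher and 0 lower (6 and 5 unadjusted), a share near the 5.76% over all probes. The median log2 change of the list was -0.15 against -0.09 over all probes for TIA1 KO, and 0.11 against -0.02 for TIAR KO. Grb10, an adaptor that restrains the receptor, rose in both, from 6.69 and 6.83 in WT to 9.96 and 10.35 in TIA1 KO (at least 8.90-fold, limma adjusted p = 0.00874) and 8.78 and 8.81 in TIAR KO MEF (at least 3.46-fold, 0.00168). The docking proteins Irs1 (1.97, adjusted p = 0.0173) and Irs2 (1.32, 0.0327, and -0.28 with arrays scaled to a common median) rose in TIA1 KO MEF. Among regulatory subunits of PI3K, Pik3r3 fell in TIA1 KO MEF (-1.16, adjusted p = 0.0441) and Pik3r1 rose in TIAR KO MEF (1.04, 0.0247). Pik3r3 also read lower in TIAR KO than in WT MEF, without a call (-1.49, limma adjusted p = 0.0868). It was not called between the knockouts (-0.33, 0.646). The Pik3r3 call held under 4 of 13 alternatives and the Pik3r1 call under 7 of 13. Among the 6 that lost the Pik3r1 call were the omission of WT replicate 2 (0.89) or TIAR KO replicate 1 (0.98) or 2 (1.09). With arrays scaled to a common median, Irs1 (0.45) and the protease Htra1 (0.21) were not called in TIA1 KO MEF. The remaining 23 genes, among them Akt1, Akt2, Foxo1 and Mtor, were called in neither knockout. In TIAR KO MEF, Mtor (-0.88, limma adjusted p = 0.023) and Foxo1 (0.82, 0.0277) passed the adjusted threshold and missed the 2-fold threshold alone. For TIA1 KO they changed by -0.81 (0.0792) and 0.37 (0.202). As for the binding proteins, all calls of these lists in TIA1 KO MEF were lost without either WT array.

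**Figure D5:**
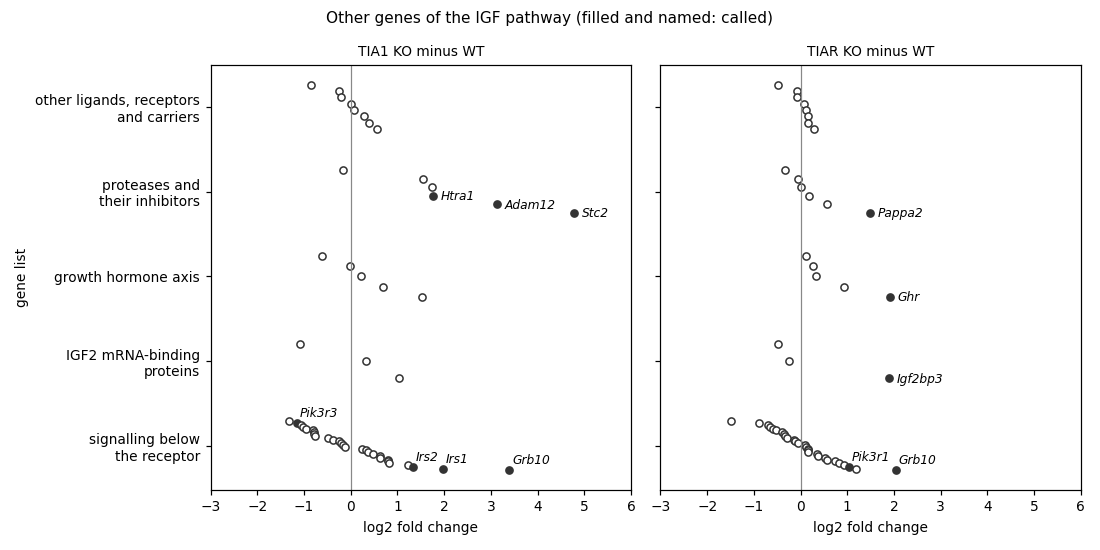
Log2 fold change against WT of the other IGF pathway genes, 1 point per gene in 5 lists, in TIA1 KO and TIAR KO MEF, filled and named where called. Stc2 (4.79), Grb10 (3.40) and Adam12 (3.14) lie farthest to the right in TIA1 KO MEF, and the 8 other ligands, receptors and carriers hold no call.

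The labelled cell type was read from marker genes on the same arrays. Of 9 fibroblast markers, the WT arrays rated 7 and 8 well above background, both TIA1 KO arrays 8 and both TIAR KO arrays 9. Their summed normalized intensity was 533400 and 567020 in WT, 1314200 and 1289100 in TIA1 KO and 1340200 and 1361000 in TIAR KO MEF, where the brightest probe was that of S100a4 or Col1a2. Vim, the mesenchymal intermediate filament, read 17.24 and 17.49 in WT, 17.75 and 17.87 in TIA1 KO and 17.82 and 17.89 in TIAR KO MEF. The list was called higher for 6 of 9 genes for TIA1 KO and 7 of 9 for TIAR KO, where 2.18% and 3.39% of all probes were. Their median changes were 2.50 and 2.40, against -0.09 and -0.02 over all probes. With arrays scaled to a common median, the calls of Col1a1 (0.50) and Col1a2 (0.99) in TIA1 KO MEF were lost, and all 6 were lost without either WT array. Of 13 alternatives, the TIA1 KO call held under 8 for Col1a1, 5 for Col1a2 and 9 for Pdgfrb. That of Col1a2 was also lost without loess (2.49) and in the authors' log2 table (2.50), at a nearly unchanged fold.

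Of the 9 fibroblast markers, 4 had the largest changes against WT MEF in either knockout. Col3a1, a fibrillar collagen, read 9.52 and 9.08 in WT, 15.60 and 15.65 in TIA1 KO and 15.16 and 16.64 in TIAR KO MEF. Pdgfrb, a platelet-derived growth factor receptor, read 9.77 and 8.86 in WT, 12.80 and 13.03 in TIA1 KO and 13.32 and 12.94 in TIAR KO MEF. Pdgfra, a related platelet-derived growth factor receptor, read 6.37 and 6.40 in WT, not above background, 10.05 and 10.22 in TIA1 KO and 11.68 and 11.51 in TIAR KO MEF. Both receptors were higher in each knockout than in WT MEF. Thy1, a surface marker of many fibroblasts, read 6.63 and 6.98 in WT, 7.11 and 7.48 in TIA1 KO and 14.84 and 14.74 in TIAR KO MEF, with background levels on 1 of 2 WT arrays and both TIA1 KO arrays. Pdgfra was thus at background in WT MEF and Thy1 in TIA1 KO MEF, while all 9 markers were above it in TIAR KO MEF.

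Of 4 smooth muscle or myofibroblast markers, 2 were called higher for TIA1 KO and 3 for TIAR KO, against the same 2.18% and 3.39% of all probes. Their summed intensity was 15662 and 20158 in WT, 267230 and 295880 in TIA1 KO and 476390 and 422150 in TIAR KO MEF, where the brightest probe was that of Tagln in WT and of Acta2 in both knockouts, while Myh11 was near background on every array. Their part, and that of the fibroblast markers, in the changes of Igfbp3 to Igfbp6 was not tested. In such bulk RNA, more cells of a kind and more RNA per cell cannot be told apart.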

How the data were processed

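Agilent SurePrint mouse arrays were hybridized with total RNA of the MEF lines, 2 per line and 6 on 1 slide. The authors deposited the spot intensity, local background and flags that Feature Extraction 10.7.3.1 wrote for each array, and a table of log2 values that they state to be background corrected, loess and quantile normalized (limma, per the labels).

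Here, mean intensities were corrected by normexp (offset 50), taken to log2, adjusted by 1 loess pass and quantile normalized in limma 3.58.1 (R 4.3.3), close to the authors' steps, and their log2 table served as an alternative (correlation of at least 0.997 per array). Control and outlier spots were left out and spots of a probe averaged. Each comparison was fitted on its own 4 arrays. On simulated data the fit was checked for the direction and mean size of set changes, with no limit set on false calls. With 2 arrays per group, their number limits the precision.

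A gene was read from its brightest probe, with its other probes described beside it. The text names Tia1, Tial1, the 9 genes, the 5 genes closest in pattern to Igf1, and genes of the pathway and marker lists, both called and not called. The genes and lists were chosen with earlier results of these data known. The labels do not say whether replicate numbers pair the arrays, and the main fit used no pairing. Alternatives varied the background, normalization, filters, fit, probes and arrays. RefSeq (GRCm38.p6) gave the promoter sequences.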

Additional observations from a re-analysis of the deposited data

How the results depend on the processing

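Of 446 gene results recomputed for TIA1 KO against WT, 322 kept direction and side of the threshold, 98 lost a call, 13 gained one and 13 changed sign. The numbers were 455, 27, 5 and 0 of 487 for TIAR KO against WT and 278, 74, 2 and 5 of 359 between the knockouts. Below, causes were not tested unless the setting's construction shows them.

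With the processed signal scaled to the 75th percentile, the median of all probes moved to 1.98 in TIA1 KO against WT and 0 probes and 0 IGF genes were called (limma, 27765 probes at an unadjusted p under 0.05). Igfbp4 (9.59) lay 7.61 above that median, Igfbp5 (8.67) 6.68 and Igfbp3 (6.94) 4.96, while Igf1 (-0.070) lay below it and the Igf1 probe at 87395924 read 1.47. Between the knockouts Igf1r (-0.041), Igf2r (0.013) and that Igf1 probe (-0.076) changed sign. With a common array median, the median of all probes was -0.68, 16041 probes were called in TIA1 KO (11.6% of calls higher, against 61.6%), and Igf1 (-0.99), Igf1r (-1.03), Igf2r (-0.68), Igfbp6 (-0.74) and Irs2 (-0.28) changed sign. Against that median, Igfbp4 stood at 6.02, Igfbp5 at 4.97 and Igfbp3 at 3.64. The same setting left 2 IGF genes called in TIAR KO, and between the knockouts called 8416 probes and moved Igf2r to 1.01. In 58.8% of main TIAR KO calls the probe was higher, against 33.6% here. Without loess, Igf1 was -0.059 and its probe at 87395924 was 0.021 in TIA1 KO. In the authors' log2 table these were -0.058 and 0.028, with 1309 probes called. Restricted to probes well above background, which tests fewer, 2910 probes were called between the knockouts. All 3 groups in 1 fit gave 3986 calls in TIA1 KO and 3183 between the knockouts.

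The replicate number as a block gave 671 calls in TIA1 KO, and 0 probes and 0 IGF genes between the knockouts (10684 at an unadjusted p under 0.05). Same-numbered arrays deviated with correlations of 0.03, 0.08 and -0.07, so the numbers do not pair the arrays. With 1 array left out at a time, a fit that takes the lone array to vary like the others gave 0 to 10735 called probes and 0 to 5 IGF genes in TIA1 KO, 1 to 4 IGF genes in TIAR KO, and 0 to 10086 probes and 0 to 6 IGF genes between the knockouts. The Igf1 probe at 87395924 ranged from -0.18 to 0.019 in TIA1 KO and Igf1r from -0.046 to 0.36 between the knockouts. Probes near background carry a bound only, which limits what Igfbp2, Igfbp3, Igfbp4, Igfbp5 and Igfbp7 show in WT MEF.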

Other observations

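Markers of cell types other than fibroblasts were read on the same arrays. Over all probes, 2.18% were called higher for TIA1 KO and 3.39% for TIAR KO. Of 5 epithelial markers, 1 (Krt8, 1.23, and 0.40 without a call under a common array median) was called higher for TIA1 KO and 3 for TIAR KO, with summed normalized intensities of 915 and 949 for WT, 1153 and 1511 for TIA1 KO and 2415 and 2387 for TIAR KO. Of 5 macrophage and leukocyte markers, Itgam was called higher in TIA1 KO MEF (1.82). That call was kept under 5 of 13 alternatives and lost with a common array median (0.24). Cd68, well above background on every array, was not called against WT (-0.34 for TIA1 KO and 1.13 for TIAR KO), and neither was Csf1r (0.26 and 0.24). Between the knockouts, Cd68 was called higher in TIAR KO MEF (1.48) and Itgam lower (-1.66). Ptprc, the pan-leukocyte antigen, and Emr1 were near background on all 6 arrays. Of 4 adipocyte markers, Pparg was called higher against WT for TIA1 KO (4.13) and for TIAR KO (2.12), while Adipoq was near background on every array. Fabp4, well above background on every array, was called in neither knockout (0.28 for TIA1 KO and 0.84 for TIAR KO). Between the knockouts, Pparg was called lower in TIAR KO MEF (-2.01) and Fabp4 was not called (0.56). Of 3 myoblast markers Des (1.15), and of 3 hepatocyte markers Afp (1.30), were called higher in TIAR KO MEF, and of 4 endothelial markers 0 were called by limma in either knockout (1 higher at an unadjusted p under 0.05 in each).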
